A study of Mus musculus with 8 samples.

Results

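The 40 genes described here encode the DNA replication machinery and the proteins that start S phase, and they were taken by gene symbol from the tables of 8 brain endothelial RNA libraries. All 40 symbols were present among the 24394 symbols that the tables share. YT-ECKO stands for 4 libraries (YT-ECKO 1 to 4) from C57BL/6J mice that carry VE-cadherin-CreERT2 together with Yapf/f and Tazf/f alleles. WT stands for 4 libraries (WT 1 to 4) from wild-type C57BL/6J mice. Both groups consisted of endothelial cells sorted from the brain by flow cytometry at postnatal day 8. VE-cadherin-CreERT2 is a tamoxifen-inducible recombinase expressed from an endothelial promoter, so that the floxed Yap and Taz alleles (gene symbols Yap1 and Wwtr1) are targeted in endothelial cells. The Cre transgene, the floxed alleles and any treatment given to one group alone cannot be told apart from the loss of YAP and TAZ, and the labels give neither the tamoxifen schedule nor whether each library is a separate mouse. The p-values below therefore measure the spread between these libraries.

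Replication starts with licensing. The origin recognition complex, Cdc6 and Cdt1 load the Mcm2 to Mcm7 helicase onto origins in G1, and cyclin E with Cdk2 and the Dbf4-dependent kinase then fire them by recruiting Cdc45, the GINS complex and Mcm10. Cyclin D1 with its kinases phosphorylates RB proteins, which releases E2F factors that transcribe many of the genes listed here. The postnatal brain vasculature still grows by sprouting, and proliferating endothelial cells are part of that growth. In other cell types YAP and TAZ are known to promote entry into S phase.

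The values are log2 numbers that the authors deposited, returned here to the linear scale and called scaled reads, meaning reads brought to a common library size of 10.3 to 10.9 M. Where 4 values of a group are given, they run in the order of the library numbers. A single read was worth 0.612 (WT 1) to 1.55 (YT-ECKO 1) scaled reads, which implied 6.67 to 16.8 M reads per library. Wwtr1 stood at 348, 2608, 1261 and 1124 scaled reads across the YT-ECKO libraries and 8220.4, 5906, 6756 and 5649.9 across those of WT. Yap1 stood at 9.29, 605, 293 and 402 scaled reads across the YT-ECKO libraries and 2833, 1726, 1409 and 1887 across those of WT. Both targeted genes lay lower in each YT-ECKO library than in any WT library, with a limma adjusted p of 0.0113 for Wwtr1 (log2 difference -2.45 ± 0.41, SE) and of 0.175 for Yap1 (-2.39 ± 0.52), which did not pass. All 12 endothelial markers were above 0 in all 8 libraries, with summed levels of 102201 to 134271 scaled reads over the YT-ECKO libraries and 102181 to 122260 over those of WT. The tables of WT 1, WT 2 and WT 3 were written in another number format than those of WT 4 and the YT-ECKO libraries, whose 27 symbols read as dates were left out. WT 4 also lay closer to YT-ECKO in the number of genes above 0, with 7538 to 8762 genes in YT-ECKO, 8621 in WT 4 and 9325 to 9720 in WT 1 to 3. Between the 3 WT tables of the other format and YT-ECKO, table format and genotype cannot be told apart.

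A feature of part of these genes that the choice did not use is the E2F motif in the promoter. The sequences are shown because the motif is far more frequent in these promoters than in others. RefSeq promoter windows on GRCm38.p6, from 250 bases before to 50 bases after a transcription start, were matched by symbol for 33 of the 40 genes. Mcm4, Pole, Rfc2, Ccnd1, Ccne2, Gins2 and Gins1 were not matched. The windows were searched on both strands for TTTCCCGC, TTTGGCGC, TTTCGCGC and TTTGCCGC, which can overlap each other. A match was found in 15 of 33 replication genes (45.5%). Over all genes with a window the share was 2.605% (704 of 27025), and over single promoter windows it was 2.26% (744 of 32851). Among the genes with a window that were tested for expression a match was found in 333 of 6661. The first matches of the 11 replication genes tested for expression are given as windows of 30 bases, 5′ to 3′ on the gene's strand, with the motif in capitals.
Mcm3, chr1:20820275-20820304, minus strand: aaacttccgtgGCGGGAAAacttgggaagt
Mcm6, chr1:128359797-128359826, minus strand: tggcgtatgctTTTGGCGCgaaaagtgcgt
Clspn, chr4:126556990-126557019, plus strand: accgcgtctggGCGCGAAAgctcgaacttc
Mcm7, chr5:138172030-138172059, minus strand: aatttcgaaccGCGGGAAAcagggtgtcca
Rfc3, chr5:151651200-151651229, minus strand: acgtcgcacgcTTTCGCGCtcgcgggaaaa
Lig1, chr7:13278841-13278870, plus strand: cgccaaagtgcGCGCGAAAtctgtgtggcg
Mcm5, chr8:75109345-75109374, plus strand: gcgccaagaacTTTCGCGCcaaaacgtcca
Cdt1, chr8:122568035-122568064, plus strand: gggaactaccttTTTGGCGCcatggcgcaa
Cdk2, chr10:128705173-128705202, minus strand: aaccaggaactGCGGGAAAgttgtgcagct
Uhrf1, chr17:56304117-56304146, plus strand: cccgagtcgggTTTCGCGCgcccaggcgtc
Pola1, chrX:93632275-93632304, minus strand: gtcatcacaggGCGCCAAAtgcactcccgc

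Several genes carried more than 1 match. Mcm6 had 3 matches, of which those starting at -110 and -106 bases overlap, while the other lay at -47. Mcm3, Mcm5, Mcm7 and Rfc3 had 2 matches each. The 250 bases upstream of the start are shown for Mcm6, which had the most matches and was chosen for that, and for Mcm7 and Pola1, which are among the genes described library by library below.
Mcm6, chr1:128359706-128359955, minus strand: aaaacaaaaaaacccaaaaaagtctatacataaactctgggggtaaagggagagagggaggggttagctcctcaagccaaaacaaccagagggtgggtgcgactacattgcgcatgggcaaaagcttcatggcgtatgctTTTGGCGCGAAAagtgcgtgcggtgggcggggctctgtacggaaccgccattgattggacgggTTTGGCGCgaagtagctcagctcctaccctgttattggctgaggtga
Mcm7, chr5:138171884-138172133, minus strand: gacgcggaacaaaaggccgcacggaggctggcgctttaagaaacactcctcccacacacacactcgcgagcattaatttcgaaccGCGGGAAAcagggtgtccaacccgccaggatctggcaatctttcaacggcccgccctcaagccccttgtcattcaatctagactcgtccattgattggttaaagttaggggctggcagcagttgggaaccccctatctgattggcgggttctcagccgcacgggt
Pola1, chrX:93632156-93632405, minus strand: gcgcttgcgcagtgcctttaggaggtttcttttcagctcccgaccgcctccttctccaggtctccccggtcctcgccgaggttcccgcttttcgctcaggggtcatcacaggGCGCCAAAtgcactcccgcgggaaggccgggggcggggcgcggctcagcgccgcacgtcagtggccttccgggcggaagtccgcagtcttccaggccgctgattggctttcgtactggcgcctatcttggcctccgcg

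Further searches gave other shares, as a description of letters and not of binding. The CCAAT letters, on either strand, were found in 23 of 33 replication genes (69.7%), against 42.6% of the tested genes and 41.1% of all genes with a window. GGAATG, the core of the motif bound by TEAD factors, was found in 4 of 33 replication genes (12.1%), against 13.9% of the tested genes and 16.6% of all genes with a window. A match shows only that these letters are in the window.

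**Figure D1:**
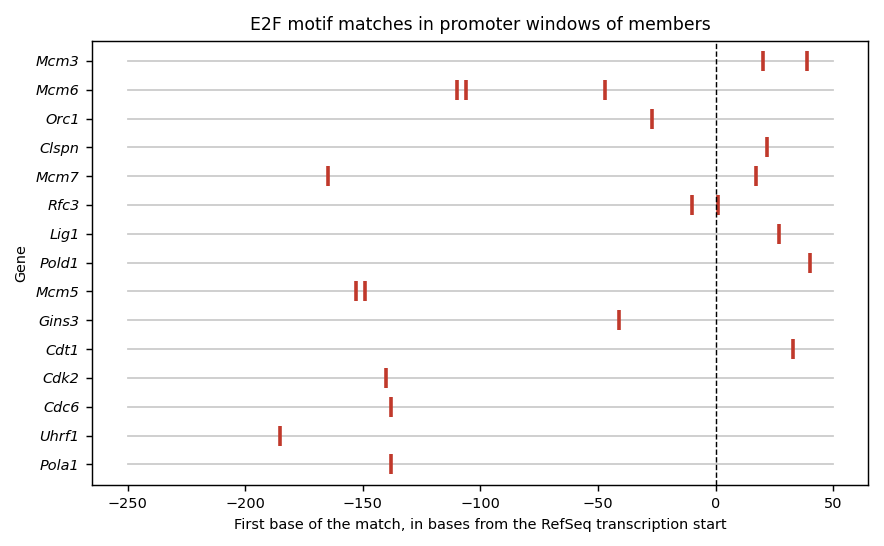
E2F motif matches in the promoter windows of the 15 genes that had one. The horizontal axis gives the first base of each match in bases from the RefSeq transcription start, the grey lines span 250 bases upstream to 50 bases downstream, and each red tick is 1 match; Mcm6 has 3.

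The comparison of YT-ECKO with WT asked which of these transcripts differ when YAP and TAZ are targeted in the endothelium. None of the 40 replication genes passed the test. A gene was tested where 4 or more libraries held 10 or more scaled reads; 29 genes met this, of which 19 had lower and 10 had higher fitted values in YT-ECKO. Of the 29, Rfc3, Rrm2, Tyms and Clspn reached 10 scaled reads in fewer than 2 libraries of one group and passed this filter mainly through the other group. The call rate over all 8706 genes tested was 0.0345% (limma, Benjamini-Hochberg adjusted p under 0.05), so that a count of 0 among 29 is the background count. At an unadjusted p under 0.05 there were 2 lower members, Ccne2 and Gins2, and 1 higher member, Clspn, against 5.47% of all genes tested (3.69% lower and 1.78% higher). With voom on rebuilt reads 0 members passed the adjustment as well, and 5 lower and 1 higher had an unadjusted p under 0.05, against 4.94% lower and 1.81% higher of all genes in that fit. The median log2 difference was -0.35 over the 29 members and -0.09 over all genes tested, both as YT-ECKO minus WT on the log2(scaled reads + 128) scale. Of all genes tested 56.9% had a difference below 0, against 65.5% of the members. The median member had a 95% confidence interval reaching 1.17 log2 units to either side, wider than a 2-fold change, and a median SD within groups of 0.74, against 0.69 over all genes.

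**Figure D2:**
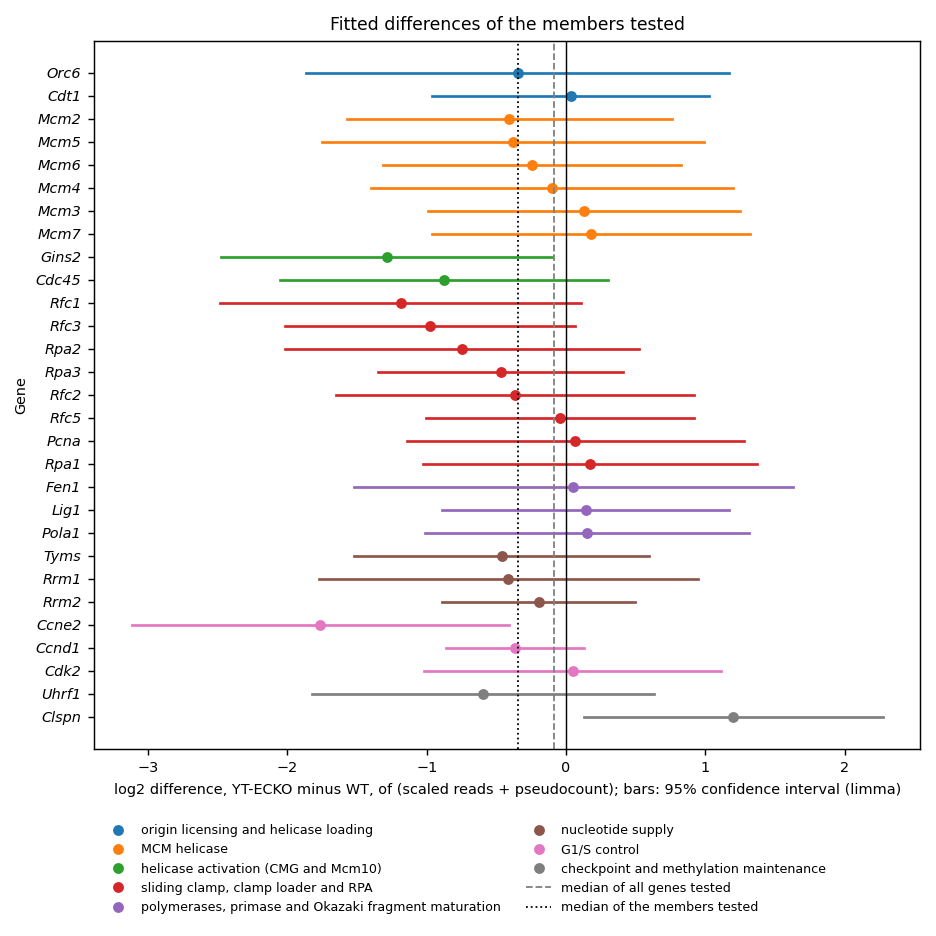
Fitted log2 differences of the 29 members tested, YT-ECKO minus WT, on the log2(scaled reads + 128) scale, grouped and coloured by role, with the medians of the members (dotted) and of all genes (dashed). Points are estimates and bars are 95% confidence intervals. The intervals of Ccne2 and Gins2 lie below 0, that of Clspn lies above it, and all others span it.

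Among the G1/S control genes, Ccnd1 separated the groups in these libraries without passing the test. Ccnd1 (chromosome 7, 144929931 to 144939925, minus strand, GRCm38) encodes cyclin D1, the D-type cyclin that couples growth signals to RB phosphorylation. Its values were 9857, 7445, 10764 and 11214 scaled reads across the YT-ECKO libraries and 12220.4, 11331, 13522 and 13363 across those of WT. No YT-ECKO value reached the lowest WT value, although YT-ECKO 4 came close to WT 2. Ccnd1 averaged 9820.1 ± 1681 scaled reads in YT-ECKO and 12609 ± 1031 in WT (SD, n = 4 each), 77.9% of the WT mean. The log2 difference was -0.37 ± 0.24 (SE) (limma adjusted p = 0.980). The 95% interval ran from -0.87 to 0.13. Its SD within groups of 0.20 log2 units was the smallest of the members. Ccnd1 was the 1 member of 29 whose groups did not overlap, which is 3.45% of the members, against 3.40% of all genes tested (2.07% lower and 1.33% higher in YT-ECKO). The groups were also apart under the 4 other scalings of the libraries, and without YT-ECKO 2 the difference was -0.24.

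The E-type cyclins were uneven between libraries. Ccne2, which encodes cyclin E2, an activator of Cdk2 at the G1/S transition, stood at 74.0, 0, 0 and 27.6 scaled reads across the YT-ECKO libraries and 339, 4.34, 427 and 1862 across those of WT. WT 2 fell among the YT-ECKO libraries, and WT 4 was far above the other WT libraries. Its log2 difference of -1.76 ± 0.66 (SE) had the smallest p of the members (limma adjusted p = 0.747). It was -1.11 without WT 4, and it depended on the pseudocount, from -4.84 with a pseudocount of 1 to -0.89 with one of 512. Ccne1, which encodes cyclin E1, was not tested because it was above 10 scaled reads in 2 libraries: it stood at 298 in WT 1 and 133 in WT 3, at 3.53 in YT-ECKO 2, and at 0 elsewhere. The kinase gene Cdk2 averaged 1015 ± 536 scaled reads in YT-ECKO and 973 ± 481 in WT (SD, n = 4 each). E2f1, which encodes an activating factor of the E2F family, was above 0 at 318 scaled reads in YT-ECKO 3 and at 115 and 425 in WT 1 and WT 3. It was listed at 0 in the other 5 libraries and was not tested.

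Of the 4 licensing genes, Orc6 and Cdt1 were tested, and neither passed. Orc1, the largest subunit of the origin recognition complex, was listed at 0 in all 8 libraries. Orc6, the smallest subunit, stood at 0, 694, 39.1 and 1675 scaled reads across the YT-ECKO libraries and 922, 271, 437 and 224 across those of WT. Its YT-ECKO mean was the higher (602 against 463 in WT) while its fitted difference was negative (-0.35), with YT-ECKO 4 far above the other libraries. Cdt1, the loading factor that geminin inhibits, had a difference of 0.03 ± 0.48 (SE). Cdc6, the loading ATPase, was above 0 at 74.5 scaled reads in WT 3 and 318 in WT 4 and at 0 in all 4 YT-ECKO libraries.

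The helicase subunits Mcm2 to Mcm7 were all tested, and none passed. Their sum reached 1870.4, 2138, 2245 and 2348 scaled reads across the YT-ECKO libraries and 2235, 2282, 2320.0 and 2694 across those of WT. The groups overlapped, since YT-ECKO 3 and 4 lay above WT 1. Fitted differences of the 6 subunits ran from -0.41 for Mcm2 to 0.18 for Mcm7, with 4 lower and 2 higher and a median of -0.17. Mcm7 (chromosome 5, 138164583 to 138172422, minus strand) stood at 693, 191, 378 and 422 scaled reads across the YT-ECKO libraries and 532, 136, 335 and 421 across those of WT, a difference of 0.18 ± 0.55 (SE; limma adjusted p = 0.993). Both groups covered nearly the same range. Mcm4 stood at 1.59 scaled reads in YT-ECKO 1, about 1 read, and at 329 to 505 in the other YT-ECKO libraries. Mcm5 was listed at 0 in WT 4 and at 3.13 in YT-ECKO 1, but between 214 and 785 in the other 6 libraries. Single subunits thus stood at or near 0 in single libraries of both groups.

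Of the factors that turn the loaded helicase into the active CMG form, Cdc45 and Gins2 could be tested, and both had lower fitted values in YT-ECKO without passing. Gins2 (chromosome 8, 120578633 to 120589304, minus strand), a GINS subunit, stood at 145, 1.76, 0 and 208 scaled reads across the YT-ECKO libraries and 297, 467, 522 and 199.9 across those of WT. The overlap was slight, as YT-ECKO 4 exceeded WT 4 by a few scaled reads. Its log2 difference was -1.29 ± 0.58 (SE; limma adjusted p = 0.882). Cdc45 (chromosome 16, 18780447 to 18811987, minus strand) stood at 0, 19.5, 135 and 225 scaled reads across the YT-ECKO libraries and 123, 484, 359 and 139 across those of WT, with a difference of -0.88 ± 0.57 (SE; adjusted p = 0.980). YT-ECKO 3 and 4 lay within the WT range. Gins1 was above 0 in YT-ECKO 3 and 4 (2.28 and 36.5 scaled reads), and Gins3 in YT-ECKO 1 and 4 (3.15 and 4.62) and in WT 2 and 4 (148 and 1.99). Mcm10, which stabilises the active helicase, was above 0 in YT-ECKO 3 (108) and WT 3 (29.5).

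**Figure D3:**
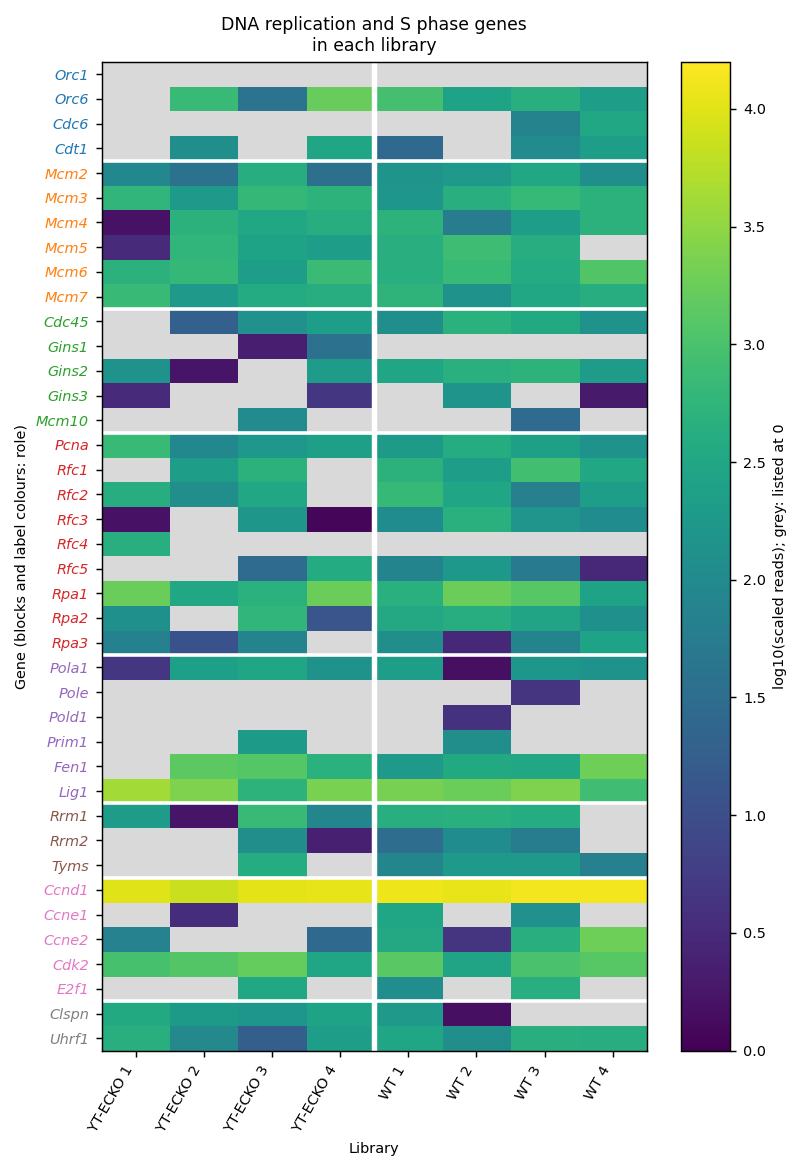
Scaled reads of the 40 replication and S phase genes (rows, in blocks by role) in each of the 8 libraries (columns, YT-ECKO left of WT), as log10 colour with grey for genes listed at 0. Colours compare 1 gene between libraries and not 1 gene with another; Orc1 is grey throughout and Ccnd1 is bright in every library.

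At the fork, 8 of 9 clamp, clamp loader and single-strand binding genes were tested, 6 with lower and 2 with higher fitted values in YT-ECKO and a median of -0.42. Rfc1 (chromosome 5, 65261850 to 65335670, minus strand), the large subunit of the loader that places PCNA on DNA, stood at 0, 222, 504 and 0 scaled reads across the YT-ECKO libraries and 504, 225, 858 and 315 across those of WT. YT-ECKO 3 lay within the WT range, and the difference was -1.19 ± 0.63 (SE; limma adjusted p = 0.928). Rfc3 (chromosome 5, 151642756 to 151651242, minus strand), a small subunit of the same loader, stood at 1.59, 0, 166 and 1.16 scaled reads across the YT-ECKO libraries and 109, 468, 153 and 109 across those of WT. Again YT-ECKO 3 alone reached the WT range, and the difference was -0.98 ± 0.50 (SE; adjusted p = 0.928). Rfc2 and Rfc5 had differences of -0.37 and -0.05, with Rfc5 higher in the YT-ECKO mean (102) than in the WT mean (77.1). Rfc4 was above 0 in YT-ECKO 1 alone, at 442 scaled reads.

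Pcna, the sliding clamp itself, averaged 299 ± 272 scaled reads in YT-ECKO and 241 ± 109 in WT (SD, n = 4 each), a difference of 0.07 ± 0.59 (SE). Rpa1 (chromosome 11, 75298166 to 75348324, minus strand), the large subunit of the single-strand binding protein, stood at 1723, 323, 487 and 1838 scaled reads across the YT-ECKO libraries and 456, 1832, 1262 and 269 across those of WT. Each group held 2 high and 2 low libraries, and the difference was 0.17 ± 0.58 (SE; limma adjusted p = 0.994). Rpa2 and Rpa3, the smaller subunits, had differences of -0.75 and -0.47, and neither passed.

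Of the enzymes that synthesise and join DNA, 3 of 6 could be tested, and all 3 had slightly higher fitted values in YT-ECKO. Lig1 (chromosome 7, 13277283 to 13311433, plus strand), the ligase that seals Okazaki fragments, stood at 4136, 2447, 515 and 2244 scaled reads across the YT-ECKO libraries and 2216, 1832, 2449 and 832 across those of WT. The lowest and the highest value both belonged to YT-ECKO, and the difference was 0.14 ± 0.49 (SE; limma adjusted p = 0.994). Pola1 (chromosome X, 93304767 to 93632155, minus strand), the catalytic subunit of the polymerase that makes primers with primase, stood at 4.68, 237, 300.2 and 137 scaled reads across the YT-ECKO libraries and 218, 1.48, 168 and 145 across those of WT. Each group had 1 library near 0, and the difference was 0.15 ± 0.56 (SE; adjusted p = 0.994). Fen1, the flap nuclease that trims Okazaki fragments, averaged 769 ± 647 scaled reads in YT-ECKO and 689 ± 811 in WT (SD, n = 4 each), with WT 4 at 1900.3 and YT-ECKO 1 at 0. The catalytic subunits of the leading and lagging strand polymerases were barely seen: Pole had 4.48 scaled reads in WT 3 and Pold1 4.18 in WT 2, and both were at 0 elsewhere. The primase gene Prim1 was above 0 in YT-ECKO 3 (191) and WT 2 (119).

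Clspn, the checkpoint adaptor claspin that links stalled forks to the Chk1 kinase, was the member with the largest positive difference. It stood at 360.0, 192, 162 and 270.0 scaled reads across the YT-ECKO libraries and 178, 1.48, 0 and 0 across those of WT (chromosome 4, 126556935 to 126593903, plus strand). WT 1 overlapped the YT-ECKO values, and the other WT libraries had at most about 1 read. Its log2 difference was 1.20 ± 0.52 (SE; limma adjusted p = 0.873). Uhrf1, which guides maintenance methylation behind the fork, had a difference of -0.595 ± 0.595 (SE).

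The 3 genes for nucleotide supply all had lower fitted values in YT-ECKO, none of them passing. Tyms, thymidylate synthase, was at 401 scaled reads in YT-ECKO 3 and listed at 0 in the other YT-ECKO libraries, against 86.0, 183, 178 and 67.6 over the WT libraries. Rrm2, the S phase subunit of ribonucleotide reductase, stood at 0, 0, 119 and 2.31 scaled reads across the YT-ECKO libraries and 31.3, 109, 60.6 and 0 across those of WT. Rrm1, its constant large subunit, stood at 200.2, 1.76, 667 and 82.8 across the YT-ECKO libraries and 441, 456, 401 and 0 across those of WT. In all 3 genes YT-ECKO 3 held the highest value of the 8 libraries. Differences were -0.46, -0.20 and -0.41 for Tyms, Rrm2 and Rrm1.

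**Figure D4:**
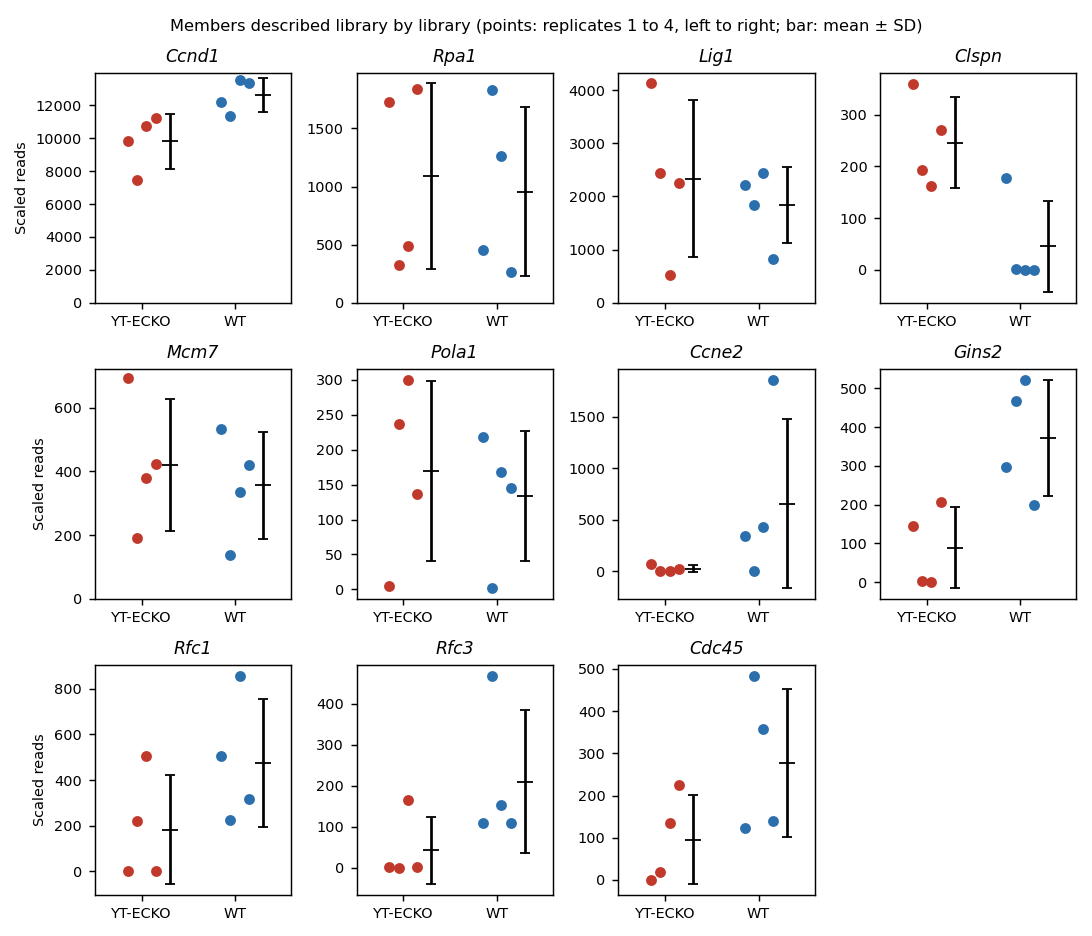
Scaled reads (vertical axes, linear, each with its own range) of the 11 genes with library values chosen by rule, in the YT-ECKO libraries (red, left) and the WT libraries (blue, right), with mean ± SD. Ccnd1 is the 1 gene whose groups do not overlap, with 7445 to 11214 in YT-ECKO and 11331 to 13522 in WT.

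Members were unevenly spread over the libraries of a group. YT-ECKO 3 held the highest YT-ECKO value in 14 of the 36 members above 0 in that group (38.9%), whereas it did so in 24.4% of all genes tested. YT-ECKO 2 did so in 4 of 36 (11.1%, against 26.5% of all genes), and WT 2 held the highest WT value in 13 of 37 members (35.1%, against 23.7%). The member shares include members too sparse to be tested, whereas the shares of all genes hold tested genes only, so the sets are unlike. The members highest in YT-ECKO 3 included Mcm2 (411 scaled reads, against 35.7 to 92.4 in the other YT-ECKO libraries), Rpa2 (589.8) and E2f1 (318) besides those given above. Without YT-ECKO 3, 7 of 28 tested members had groups that did not overlap (25%), against 7.38% of all genes tested with the same libraries. They were Mcm2, Rfc1, Rfc3, Rpa2, Tyms and Ccnd1, lower in YT-ECKO, and Clspn, higher. In that setting 0 members passed the limma test, and the lowest adjusted p of a member was 0.635. The library was singled out after its high values were seen, so that a gain in separated members follows from the choice. Of the 7, Tyms and Rfc3 met the filter on low values through WT alone, and Rfc1 mainly through WT. Clspn met it mainly through YT-ECKO. The count of the 7 is therefore a description and supports nothing. YT-ECKO 3 also had the highest YT-ECKO sum for mural markers, 1129.6 scaled reads with 6 of 10 markers above 0. The markers did not go together. Pdgfrb (524), Rgs5 (418) and Cspg4 (63.0) were highest there within the group. Abcc9 (95.9, against 767 in YT-ECKO 2) was not. Acta2 (7.65), Tagln (20.7) and Notch3 (0) were lower there than in YT-ECKO 4 (162, 193 and 41.4). Kcnj8, Myh11 and Des were at 0 in every YT-ECKO library. The mural sum was 156 to 825 in the other YT-ECKO libraries and 413 to 1699.9 in WT, and its part in the replication genes was not tested. The endothelial marker sum of YT-ECKO 3, 134271 scaled reads, was the highest of all libraries.

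On average, fewer replication genes, and fewer genes at large, were above 0 in YT-ECKO. Members above 0 numbered 23, 24, 30 and 27 of 40 across the YT-ECKO libraries and 31, 31, 33 and 27 across those of WT, so that YT-ECKO 3 lay above WT 4 and the groups overlapped. Over gene and library pairs, 104 of 160 (65.0%) were above 0 in YT-ECKO and 122 of 160 (76.3%) in WT, while all genes above 0 in any library gave 64.4% in YT-ECKO and 72.2% in WT. For all genes WT 4 had 66.6%, within the YT-ECKO range of 58.3% to 67.7%, and WT 1 to 3 had 72.1% to 75.1%. The tables of WT 1 to 3 have the other number format, so format and genotype cannot be told apart there. Above 0 did not mean the same in each library. The log2 values were never below 0, so a single read worth under 1 scaled read appeared to be listed at 0. Single reads could show in YT-ECKO 1, YT-ECKO 4 and WT 2, where 1 read was worth more. In YT-ECKO 2 a read was worth 0.886 scaled reads and the lowest value above 0 was 1.76. For WT 4 these were 0.995 and 1.99. The part of this limit in the shares was not tested. Of the 31 members that reached 100 scaled reads in some YT-ECKO library, 16 were at 0 in another YT-ECKO library (51.6%, against 45.3% for all symbols). In WT it was 10 of 34 members (29.4%, against 33.4% for all symbols). Among the tested members 48.3% to 75.9% reached 100 scaled reads per library in YT-ECKO and 79.3% to 86.2% in WT. All tested genes did so in 64.3% to 75% in YT-ECKO and 74.4% to 79.9% in WT. The tested members include Rfc3, Rrm2 and Tyms, which passed the filter mainly through WT, and Clspn, which passed it mainly through YT-ECKO. Over all 40 members, 15, 16, 25 and 19 reached 100 scaled reads across the YT-ECKO libraries. Across those of WT it was 27, 25, 26 and 24, so YT-ECKO 3 lay above WT 4 and the groups overlapped. The implied depth was 6.67, 12.05, 13.6 and 9.46 M reads across the YT-ECKO libraries and 16.8, 7.49, 12.5 and 10.99 M across those of WT. YT-ECKO 1, the shallowest library, had the fewest members above 0, while WT 2, the next shallowest, had 31; the part of depth in detection was not tested. In bulk libraries fewer cells of a type and less RNA per cell cannot be told apart either.

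**Figure D5:**
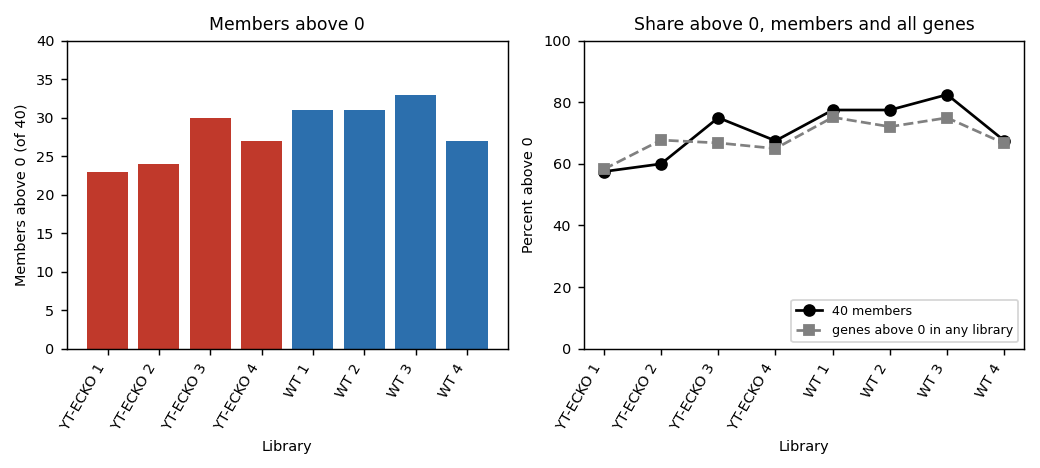
Number of the 40 members above 0 in each library (left, bars) and the percentage above 0 for the members and for all genes above 0 in any library (right, lines). Members range from 23 in YT-ECKO 1 to 33 in WT 3.

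The summed level of all 40 genes was 16746 to 22238 scaled reads over the YT-ECKO libraries and 22248 to 26366 over those of WT. Without Ccnd1 the sum was 9302 to 11669 scaled reads over the YT-ECKO libraries and 10917 to 12844 over those of WT, and the groups overlapped.

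Other genes of the pathway, listed by function, gave 0 calls in every list (limma adjusted p under 0.05, against 0.0345% of all genes). Of 35 further genes of the replication machinery 22 were tested, 14 lower and 8 higher in YT-ECKO; their median log2 difference was -0.21. Pold4, an accessory subunit of polymerase delta, was at 235 scaled reads in YT-ECKO 3 and listed at 0 in the other YT-ECKO libraries, against 205, 275, 270.2 and 231 over the WT libraries (difference -1.16 ± 0.53, SE; adjusted p = 0.882). Pold4 thus passed the filter on low values mainly through WT. Timeless, a fork protection factor, had a difference of -1.36 ± 0.63 (SE; adjusted p = 0.882) and was at 0 in WT 2 and YT-ECKO 1. Of 21 genes for nucleotide supply and chromatin assembly 15 were tested, 8 lower and 7 higher, with a median of -0.10. Their smallest p belonged to Dut, which removes dUTP, at 12.4, 301, 15.3 and 811 scaled reads across the YT-ECKO libraries and 399, 819.7, 535 and 681 across those of WT (difference -1.26 ± 0.62, SE; adjusted p = 0.928). Next came Cad, which starts pyrimidine synthesis, at 1192 scaled reads in YT-ECKO 2 and 0 in the other YT-ECKO libraries, against 329.9, 185, 665 and 0 over the WT libraries (difference -0.60 ± 0.75, SE; adjusted p = 0.990). Cad also passed the filter mainly through WT.

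Cyclins, kinases, E2F and RB proteins outside the 40 genes gave 15 lower and 6 higher of 21 tested genes in YT-ECKO, with a median of -0.21. Cks1b, a cyclin-dependent kinase subunit, stood at 12.4, 47.0, 248.7 and 442 scaled reads across the YT-ECKO libraries and 1216, 361, 414 and 437 across those of WT (difference -1.31 ± 0.60, SE; limma adjusted p = 0.882). Ccna2, the S phase cyclin A2, stood at 319, 197, 119.8 and 156 across the YT-ECKO libraries and 882, 640.5, 411 and 259.6 across those of WT (difference -0.997 ± 0.56, SE; adjusted p = 0.940). YT-ECKO 1 exceeded WT 4, so the groups overlapped. The inhibitors of cyclin-dependent kinases had a median of 0.34, with 4 higher and 2 lower of 6 tested genes. Cdkn1a, the inhibitor p21, stood at 591, 4801, 3772 and 3428 scaled reads across the YT-ECKO libraries and 950.1, 1463, 1456 and 1645 across those of WT (difference 0.84 ± 0.49, SE; adjusted p = 0.960). In YT-ECKO 2, 3 and 4 it lay above every WT library and in YT-ECKO 1 below every one. Cdkn1c, the inhibitor p57, had a larger difference in the other direction, at 0, 274.8, 1171 and 34.5 scaled reads across the YT-ECKO libraries and 371, 565, 362 and 903 across those of WT (difference -1.001 ± 0.66, SE; adjusted p = 0.980). YT-ECKO 3 exceeded every WT library and the other YT-ECKO libraries lay below all of them.

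Markers of other cell types were measured in the same libraries. Erythroid markers summed to 13671 to 48278 scaled reads over the YT-ECKO libraries and 13476 to 37649 over those of WT, while Klf1 was at 0 in all libraries. Hba-a1 and Hba-a2 had identical values in every library (18255 each in YT-ECKO 1), so the erythroid sum may count 1 signal more than once. Astrocyte markers summed to 497 to 2232 in YT-ECKO and 1348 to 2682 in WT. Microglia and macrophage markers summed to at most 129.6 in YT-ECKO and 161 in WT, with P2ry12, Ptprc, Tyrobp and Cd68 at 0 throughout. Oligodendrocyte lineage markers summed to 165 to 1283 in YT-ECKO and 1.99 to 521 in WT, with Olig1 and Sox10 at 0 throughout. Neuronal markers summed to 1655 to 3540.3 in YT-ECKO and 945 to 2061 in WT, with Nes, which endothelial cells can express, above 0 in every library and Syt1, Dcx and Neurod1 at 0 in all. Rbfox3 stood at 1375 in YT-ECKO 1 and 489 in YT-ECKO 4. The part of these cells in the replication transcripts was not tested.

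Set beside the promoter letters, the 11 tested members with an E2F match had a median log2 difference of 0.05, with 4 lower and 7 higher in YT-ECKO. The 13 tested members with a promoter window but no match had a median of -0.41, with 10 lower and 3 higher. Mcm4, Rfc2, Ccnd1, Ccne2 and Gins2 were tested but had no window, and all had lower fitted values. Clspn, with a match, passed the filter mainly through YT-ECKO, and Rfc3, with a match, mainly through WT. So did Rrm2 and Tyms, without a match. With voom 24 of the 29 tested members were lower and 5 higher, so the 7 higher did not hold there. Both medians are descriptions over small sets, and no test was made.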

How the data were processed

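Per the labels, Trizol-extracted RNA went into a Lexogen Quant-Seq kit. The submitters' processing notes name Bowtie2, edgeR and mm10; for the counting tool, annotation and versions the sources used here give nothing. Each library came as a table of symbols with log2 values that the authors deposited. These were never below 0; values between 0 and 12 on the linear scale lay within 0.1 of a whole multiple of a step specific to the library in 88.8% to 100% of cases, so they were read as log2 of scaled reads. The step is an estimate.

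Differences were fitted over all 8706 tested genes with limma 3.58.1 (trend, robust; R 4.3.3) on log2(scaled reads + 128), without covariates, and adjusted by Benjamini-Hochberg. Differences on this scale understate changes of low genes. The functions were tested on simulated data. Coordinates are from GENCODE release M21 (GRCm38). Levels were not compared between genes, since it is not settled which part of a transcript was read.

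The members, lists and tests were chosen with earlier results of these data known. Library values are given for members called, without overlap, with a mean of 1000 scaled reads or more, or among the 5 largest differences in either direction, and further members were named after their values were seen. For the other lists the 2 smallest p-values were named. Alternatives covered pseudocounts of 1, 16 and 512, filters, scaling, voom, the replicate number as a block and each library left out. Restricting the fit to tables of 1 number format, and the CCAAT and GGAATG searches, were added after seeing the data.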

Additional observations from a re-analysis of the deposited data

Results flagged for a closer look

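Of 81 groups of 4 library values examined, 20 held a library whose gap to its nearest neighbour took up most of the group's range (Dixon's test), where chance flags about 1 in 20 groups of a normal measure. Genes at 0 in 3 libraries meet the test by construction.

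In YT-ECKO 3 the highest YT-ECKO values that stood apart were Mcm2 at 411, Mcm10 at 108, Rfc3 at 166, Prim1 at 191, Rrm2 at 119, Tyms at 401 and E2f1 at 318 scaled reads. In YT-ECKO 4 they were Gins1 at 36.5 and Rfc5 at 378, in YT-ECKO 1 Rfc4 at 442 and in YT-ECKO 2 Ccne1 at 3.53.

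In WT the high values that stood apart were Gins3 (148), Rfc3 (468), Pold1 (4.18) and Prim1 (119) in WT 2, Mcm10 (29.5) and Pole (4.48) in WT 3, Fen1 (1900) in WT 4 and Clspn (178) in WT 1. The low one was Rrm1, at 0 in WT 4.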

How the results depend on the processing

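No member was called in any of the 20 settings. The number of genes called over the whole table, 3, became 0 with a pseudocount of 1, without a filter and with voom, 5 with the replicate block, 9 in tables of 1 number format (YT-ECKO 1 to 4 and WT 4), and 0 to 6 with 1 library left out (0 without WT 2, 1 without WT 1, 6 without YT-ECKO 3). The members' median of -0.35 was -1.10 with a pseudocount of 1, -0.59 with 16, -0.11 with 512, -0.97 with voom and -0.13 in tables of 1 format, while that of all genes, -0.09, was -0.28, -0.20, -0.03, -0.26 and -0.07 in the same order. Of single genes, Ccne2 ran from -6.14 with voom to -0.89 with a pseudocount of 512, Gins2 from -4.85 to -0.56, Rfc1 from -4.81 to -0.53, Rfc3 from -5.10 to -0.37, Cdc45 from -2.81 to -0.37 and Clspn from 6.11 to 0.45 in these 2 settings. Members without overlap numbered 1 in the main fit (3.45%, against 3.4% of all genes). With a library left out they numbered 1 to 7 (3.45% to 25%, against 5.1% to 7.38% of all genes). The 7 arose without YT-ECKO 3, and leaving out any other library gave 1 to 3. In tables of 1 format there were 6 (31.6%, against 35.9% of all genes there, with a lone WT library). Differences changed sign for Lig1 (-0.0389) and Mcm7 (-0.15) with voom, and for Mcm7 (-0.0795) and Pola1 (-0.0056) in 1 format; the cause was not tested. With a library left out Rpa1 ran from -0.22 to 0.55, Lig1 from -0.22 to 0.69, Mcm7 from -0.0866 to 0.41 and Pola1 from -0.16 to 0.495. Of 215 gene and setting pairs, 14 changed sign. Same-numbered libraries did not pair: correlations of their deviations ran from -0.04 to 0.08, and 1 of 4 YT-ECKO libraries correlated best with its own number. The replicate block left the members' median at -0.35 and 0 members called. The confidence interval of the median member reached 1.17 log2 units to either side in the main fit. With that width a 2-fold change of most single members would go undetected. The part of depth in this width was not tested.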
